A study of Homo sapiens with 6 samples.

Results

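The intermediate filament genes followed here are 10 rows of the 60843-gene count table, taken by symbol: VIM, NES, DES and SYNM, which encode filaments of mesenchymal, muscle and precursor cells, GFAP, the astrocyte filament, and PRPH, INA, NEFL, NEFM and NEFH, which encode the filaments of neurons. They were followed over 6 RNA sequencing libraries of the human foreskin fibroblast line BJ, an established cell line, 2 libraries for each of day 0, day 2 and day 5. Day 0 cells (labelled BJs, WT) had grown on poly-D-lysine in DMEM with serum and had received no forskolin. Day 2 cells (labelled FiNs, WT) had spent the first days in neuronal induction medium with 10 µM forskolin, which switches on adenylyl cyclase and so raises cAMP, and day 5 cells (labelled FiNs, WT) had then been in neuronal maturation medium with 10 µM forskolin. No library of cells in these media without the drug was used here, so effects of time, of medium and of forskolin cannot be told apart, and all cells come from 1 line. Whether both libraries of a day stem from separate cultures is not said in the labels, so each p-value measures only library-to-library spread, which may be technical. Library totals ran from 17605858 to 27953926 counts, and the biological coefficient of variation was 3.33%, so small changes passed the test.

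Intermediate filaments are rope-like cytoskeletal polymers of coiled-coil proteins. Cells exchange their filament proteins as they differentiate: vimentin fills fibroblasts and other mesenchymal cells, nestin joins vimentin in dividing precursors, desmin replaces it in muscle and GFAP in astrocytes, while alpha-internexin and peripherin appear in young neurons and the light, medium and heavy neurofilament proteins fill mature axons. A move from fibroblast to neuron would therefore be read from vimentin and nestin on the one side and from the neurofilament genes on the other.

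The mesenchymal filaments VIM and NES were far lower by day 5, and no neuronal filament was called higher than at day 0. VIM was 3.31-fold lower and NES 4.48-fold lower at day 5 than at day 0. INA, the best-detected neuronal filament gene, fell as well, 3.64-fold. The neurofilament genes NEFL and NEFM and the peripherin gene PRPH had between 0 and 6 counts in any library, and NEFL and NEFM had 0 counts in both day 5 libraries. SYNM was the exception: it fell at day 2 and was 1.58-fold above day 0 at day 5. Of the 10 members, 6 passed the filter on low counts and were tested (VIM, NES, SYNM, GFAP, INA and NEFH), and 4 did not (DES, PRPH, NEFL and NEFM).

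The stretches of 250 bases before the RefSeq start of the 4 genes whose changes carry these results are shown, since VIM, NES and INA were all lower at day 5 and SYNM was not (RefSeq, GRCh38.p14, 5′ to 3′ on the gene's strand). Capitals mark matches, on either strand, to the GC box (GGGCGG), the CCAAT box (CCAAT), the TATA box (TATAAA), the AP-1 motif (TGANTCA) or the core of the cAMP response element (TGACG).
VIM (chr10:17227991-17228240, plus strand): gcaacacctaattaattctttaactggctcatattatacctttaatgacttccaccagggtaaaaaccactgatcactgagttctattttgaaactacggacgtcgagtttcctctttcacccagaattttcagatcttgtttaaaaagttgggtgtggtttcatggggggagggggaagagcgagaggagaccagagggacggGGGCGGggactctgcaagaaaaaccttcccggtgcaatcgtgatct
NES (chr1:156677408-156677657, minus strand): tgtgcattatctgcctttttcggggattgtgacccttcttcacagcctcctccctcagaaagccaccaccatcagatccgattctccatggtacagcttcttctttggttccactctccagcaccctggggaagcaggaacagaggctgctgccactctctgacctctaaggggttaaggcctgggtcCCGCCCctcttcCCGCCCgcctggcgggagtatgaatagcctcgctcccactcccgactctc
SYNM (chr15:99104830-99105079, plus strand): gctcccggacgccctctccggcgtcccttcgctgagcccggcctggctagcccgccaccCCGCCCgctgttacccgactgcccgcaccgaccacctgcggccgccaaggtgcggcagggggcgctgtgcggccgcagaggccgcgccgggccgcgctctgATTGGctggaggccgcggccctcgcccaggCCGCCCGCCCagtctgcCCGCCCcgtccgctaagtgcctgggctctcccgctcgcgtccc
INA (chr10:103276888-103277137, plus strand): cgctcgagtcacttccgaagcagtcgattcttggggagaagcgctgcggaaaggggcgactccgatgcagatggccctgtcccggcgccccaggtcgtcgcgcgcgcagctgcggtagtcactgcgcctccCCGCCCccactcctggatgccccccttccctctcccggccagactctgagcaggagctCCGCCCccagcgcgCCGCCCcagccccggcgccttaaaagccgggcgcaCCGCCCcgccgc
The promoter table held 5 of the 10 members (VIM, NES, SYNM, INA and PRPH). The VIM stretch held 1 GC box, beginning 46 bases before the start, and the NES stretch held 2. The SYNM stretch held 4 GC boxes, 2 of them overlapping, and 1 CCAAT box, and the INA stretch held 4 GC boxes. Among 35116 promoter stretches of the same length, 42.6% held a GC box, 32.0% a CCAAT box, 10.7% a TATA box, 6.57% the AP-1 motif, 21.2% the letters TGACG and 1.65% the full cAMP response element TGACGTCA. No TATA box, AP-1 motif or cAMP response element, its core included, lay in any of the 4 stretches, which says only that these letters are not in these windows. Their GC content was 46.0% for VIM, 58.0% for NES, 78.8% for SYNM and 72.8% for INA, with a median of 58% over all stretches. The coding transcripts of VIM in GENCODE release 29 begin 18 to 1037 bases after the RefSeq start, and those of SYNM begin at -6863 to 0 relative to it, so other starts of these genes lie outside the stretches shown.

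VIM (ENSG00000026025, chromosome 10 at 17228259 to 17237593 of GRCh38) encodes vimentin, the filament of fibroblasts, and was by far the most abundant member. Levels are given as CPM (counts scaled to one library size, with TMM factors), as mean ± SD (n = 2 libraries per day). The day 0 libraries had 4845 and 4857 CPM of VIM, the day 2 libraries 5049.9 and 5038 CPM, and the day 5 libraries 1458 and 1474 CPM. Both day 5 libraries lay far below the other 4. It averaged 1466 ± 11.5 CPM at day 5 and 4851 ± 8.83 CPM at day 0, a log2 fold change of -1.73 ± 0.01 (SE, edgeR quasi-likelihood test, Benjamini-Hochberg adjusted p = 7.0e-23). Of the 16328 genes tested, 1306 had a log2 fold change as low or lower. Against day 2 the log2 fold change at day 5 was -1.78 ± 0.01 (adjusted p = 8.0e-23 in edgeR). VIM was the 7th most counted gene in both day 0 libraries, the 12th in both day 2 libraries, and the 54th and 52nd in the day 5 libraries. Its share of all counts was 0.531% and 0.530% in the day 0 libraries, 0.486% and 0.485% in those of day 2, and 0.138% and 0.140% in those of day 5.

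No direction could be given for VIM between day 2 and day 0. Its log2 fold change at day 2 was 0.06 ± 0.01 with TMM scaling (adjusted p = 0.00098 in edgeR) and -0.13 with library totals (adjusted p = 1.9e-07 in edgeR). Over its 14 alternatives the adjusted p ran from 2.7e-08 to 0.0152. Scaling by library totals moved the median of all tested genes from 0.00 to -0.18 at day 2 and from 0.04 to -0.16 at day 5 against day 0 on the log2 scale, and the share of calls that were higher to 38.1% from 50.03% and to 39.0% from 51.2%. Changes below use TMM scaling, and the day 5 directions of VIM, NES, SYNM and INA held under library totals too.

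NES (ENSG00000132688, chromosome 1 at 156668763 to 156677397, minus strand) encodes nestin, a long filament protein of neural precursors and of many cultured mesenchymal cells that assembles with vimentin. Its level was 538 and 557 CPM in the day 0 libraries, 232 and 235 CPM in those of day 2, and 124 and 121 CPM in those of day 5. The libraries of the 3 days did not overlap, and each later day was lower. At day 2 it averaged 233 ± 2.57 CPM, against 548 ± 14.0 CPM at day 0 (log2 fold change -1.23 ± 0.03, adjusted p = 1.7e-16 in edgeR). At day 5 it averaged 122 ± 2.30 CPM, with a log2 fold change of -2.16 ± 0.03 against day 0 (adjusted p = 1.7e-19 in edgeR) and -0.93 ± 0.03 against day 2 (adjusted p = 5.5e-14 in edgeR). Nestin is a marker of neural precursors, but other precursor genes were at or near 0 already at day 0, when NES was highest. The 6 precursor markers SOX1, SOX2, PAX6, PROM1, HES5 and FABP7 summed to 0 and 0.0344 CPM in the day 0 libraries. Over all libraries their sum lay between 0 and 0.218 CPM, with SOX1 and FABP7 at 0 in all 6.

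SYNM (ENSG00000182253, chromosome 15 at 99098217 to 99135593) encodes synemin, a large filament protein that needs vimentin or desmin to assemble and that has been described as an anchor of protein kinase A, the kinase that cAMP activates. Day 0 libraries held 36.8 and 38.2 CPM, day 2 libraries 18.6 and 20.4 CPM, and day 5 libraries 57.3 and 61.4 CPM. The days did not overlap, with day 2 lowest and day 5 highest. SYNM fell at day 2, to 19.5 ± 1.23 CPM against 37.5 ± 1.00 CPM at day 0 (log2 fold change -0.94 ± 0.07, adjusted p = 2.6e-09 in edgeR). At day 5 it averaged 59.35 ± 2.85 CPM, a log2 fold change of 0.66 ± 0.06 against day 0 (adjusted p = 6.2e-08 in edgeR) and of 1.61 ± 0.07, or 3.04-fold, against day 2 (adjusted p = 1.5e-12 in edgeR).

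DES (ENSG00000175084, chromosome 2 at 219418377 to 219426739) encodes desmin, the filament of muscle. Both day 0 libraries had 0 counts of it, the day 2 libraries 1 and 5, and the day 5 libraries 2 and 6. Against a floor of 3 counts, summed over the day, DES was at least 4.15-fold higher at day 5 than at day 0. At day 2 it was at least 2.14-fold higher than at day 0. Both bounds leave out the counting error of the later counts. They rest mostly on replicate 2, since replicate 1 was under the floor on both later days. In a fit without the count filter the day 5 change of DES against day 0 was called (adjusted p = 0.0439 in edgeR). That call rests on 8 counts against 0. The day 2 change against day 0 was not called (adjusted p = 0.127 in edgeR). These counts were near the detection limit of 3 counts, which is 0.103 to 0.180 CPM per library and covers counting error only. Of 8 skeletal muscle markers, 4 (MYOD1, MYF5, MYF6 and PAX7) had 0 counts in all 6 libraries. MYOG, like DES absent from the day 0 libraries, never exceeded 2 counts later. MYH3 averaged 0.857 CPM at day 5 and 1.13 CPM at day 0. TNNT1, not tested, had 6 and 9 counts in the day 0 libraries and 0 and 2 in those of day 5. ACTA1, also not tested, never exceeded 2 counts, so no direction is given for it. The 6 smooth muscle and myofibroblast markers summed to 148 and 149 CPM at day 5, against 1116 and 1140.2 CPM at day 0. TAGLN made up most of this fall, from a mean of 800 CPM to 5.58 CPM. MYH11 alone of these 6 was higher at day 5, averaging 1.68 CPM against 0.342 CPM at day 0. The part of other cell types in the DES counts was not tested.

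**Figure D1:**
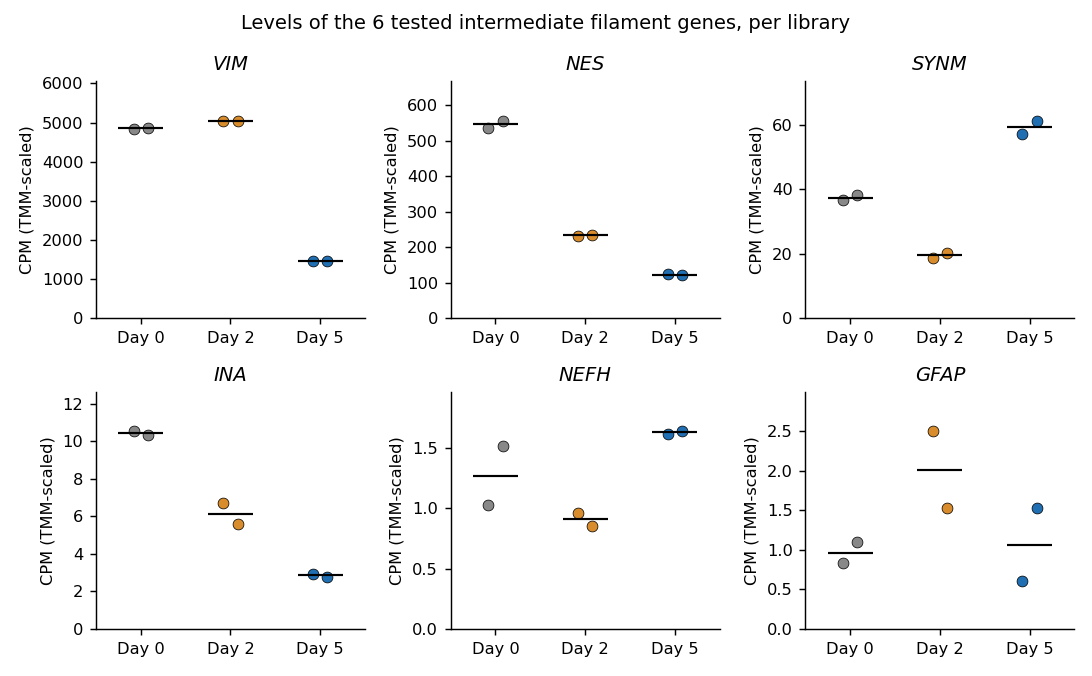
Level of each of the 6 tested members (y axis, CPM scaled by TMM factors, from 0) in the libraries of day 0, day 2 and day 5 (x axis); points are libraries and bars the mean of 2. VIM held near 4851 to 5044 CPM until day 2 and was 1466 CPM at day 5, NES and INA were lower on each later day, and SYNM was lowest at day 2 and highest at day 5.

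Among the neuronal filaments, INA (ENSG00000148798, chromosome 10 at 103277163 to 103290351), which encodes alpha-internexin, was at 10.5 and 10.3 CPM in the day 0 libraries, 6.70 and 5.58 CPM in the day 2 libraries, and 2.94 and 2.78 CPM in the day 5 libraries. The days did not overlap and each later day was lower. The log2 fold change of INA was -0.76 ± 0.14 at day 2 against day 0 (adjusted p = 0.00014 in edgeR), -1.86 ± 0.17 at day 5 against day 0 (adjusted p = 2.7e-08 in edgeR) and -1.10 ± 0.18 at day 5 against day 2 (adjusted p = 3.6e-05 in edgeR). A gene known for its role in neurons was thus detected in the starting fibroblasts, at 567 counts over both day 0 libraries, and had 100 counts over both day 5 libraries.

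NEFH (ENSG00000100285, chromosome 22 at 29480230 to 29491390) encodes the heavy neurofilament protein of mature axons. Day 0 libraries held 26 and 44 counts (1.03 and 1.51 CPM), day 2 libraries 23 and 23 (0.958 and 0.856 CPM), and day 5 libraries 27 and 30 (1.62 and 1.64 CPM). The day 5 libraries lay just above the others, but no comparison was called. The log2 fold change was 0.35 ± 0.37 at day 5 against day 0 (adjusted p = 0.405 in edgeR), -0.49 ± 0.38 at day 2 against day 0 (adjusted p = 0.262 in edgeR) and 0.84 ± 0.38 at day 5 against day 2 (adjusted p = 0.0632 in edgeR). With a stricter count filter the last of these was called (adjusted p = 0.0312 in edgeR), the only call in its 14 alternatives. NEFH passed that filter only through day 0 and day 5, where it was higher than at day 2. The call therefore gives no support for a rise from day 2.

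NEFL (ENSG00000277586, chromosome 8 at 24950955 to 24957110), which encodes the light protein that every neurofilament is built on, had 6 and 1 counts in the day 0 libraries, 1 and 1 in the day 2 libraries, and 0 and 0 in the day 5 libraries. Against a floor of 3 counts it was at least 1.5-fold lower at day 5 than at day 0. That bound leaves out the counting error of the 7 day 0 counts. At day 2 NEFL was 0.306 times its day 0 level (95% exact counting interval 0.0310 to 1.61). In a fit without the count filter neither change was called (adjusted p = 0.221 at day 5 and 0.601 at day 2 in edgeR). The bound and the ratio rest on day 0 replicate 1, which holds 6 of the 7 day 0 counts. The 1 count of replicate 2 is under the floor and allows no fold. NEFM (ENSG00000104722, chromosome 8 at 24913012 to 24919098), for the medium protein, had 2 and 0 counts in the day 0 libraries, 1 and 2 in those of day 2, and none in those of day 5. PRPH (ENSG00000135406, chromosome 12 at 49293252 to 49298686), for peripherin of peripheral neurons, had none in the day 0 libraries, 0 and 1 in those of day 2, and 1 and 0 in those of day 5. No fold is given for NEFM or PRPH, since both groups were at or under the floor in every comparison. In the shallower day 5 library, 0 counts allow a level of up to 0.180 CPM.

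**Figure D2:**
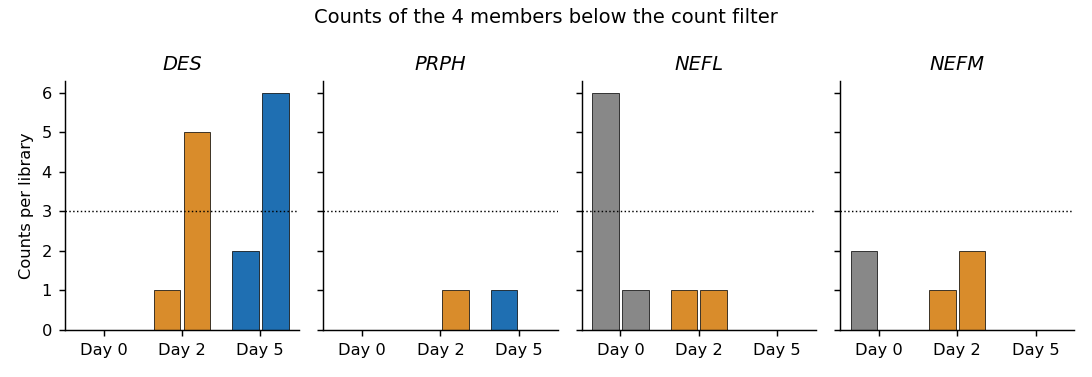
Counts (y axis, from 0) of the 4 members that did not pass the count filter, with 1 bar per library at day 0, day 2 and day 5 (x axis); the dotted line marks 3 counts. DES has 0 counts at day 0 and 2 and 6 at day 5, while NEFL and NEFM have 0 in both day 5 libraries.

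GFAP (ENSG00000131095, chromosome 17 at 44903161 to 44916937, minus strand) encodes the filament of astrocytes. Day 0 libraries held 0.828 and 1.10 CPM, day 2 libraries 2.499 and 1.53 CPM, and day 5 libraries 0.600 and 1.53 CPM. The day 2 libraries lay above the day 0 libraries, and the day 5 libraries overlapped both other days. At day 2 against day 0 the log2 fold change was 1.04 ± 0.41 (adjusted p = 0.0338 in edgeR), and at day 5 against day 2 it was -0.89 ± 0.43 (adjusted p = 0.0787 in edgeR, called in 3 of 14 alternatives). For day 2 against day 0 the test no longer called GFAP with library totals (adjusted p = 0.0750 in edgeR), with DESeq2 (adjusted p = 0.0765), and without day 0 replicate 1 (adjusted p = 0.168 in edgeR), day 0 replicate 2 (0.0653) or day 2 replicate 1 (0.301). Its adjusted p spanned 0.00956 to 0.301 in all 14 alternatives. The astrocyte markers AQP4 and ALDH1L1 had 0 counts in every library, and the list of 6 summed to 1243 and 1288 CPM in the day 5 libraries and 654 and 647 CPM in those of day 2, against 291 and 293 CPM in those of day 0, most of it GJA1, a gap junction gene also expressed by fibroblasts. The 4 tested markers were split. SLC1A2, a glutamate transporter of astrocytes, averaged 2.40 CPM at day 0, 19.7 CPM at day 2 and 3.97 CPM at day 5. GLUL was also highest at day 2, at 89.2, 166 and 131 CPM on days 0, 2 and 5. GJA1, at 200, 465 and 1130 CPM on these days, was highest at day 5. SLC1A3 was at 0.165, 0.112 and 0.720 CPM, with 14 and 11 counts in the day 5 libraries. It passed the count filter only through day 5, where it was high, so that peak was built into the selection. The part of these markers in the GFAP result was not tested. GFAP counts were not whole in any library, and its exons overlap CCDC103 and FAM187A on the opposite strand, which had 34.5 to 145 and 55.2 to 231 counts at day 0 and day 2. The strand setting of the counting was not given, so reads of these genes cannot be told apart.

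At day 2 against day 0, 5 of the 6 tested members were called, against 66.8% of all tested genes: 2 higher (VIM, whose direction turned with library totals, and GFAP, whose call was lost in 5 of 14 alternatives) and 3 lower (NES, SYNM and INA), where 33.4% of all genes were higher and 33.4% lower. In both comparisons of day 5, 4 of the 6 were called, against 69.9% of all genes over day 0 and 65.8% over day 2. At day 5 against day 0, 1 was called higher (SYNM), with 35.8% of all genes called higher, and 3 lower (VIM, NES and INA), with 34.1% called lower. At day 5 against day 2, VIM, NES and INA were called lower, with 33.7% of all genes, and SYNM higher, with 32.1%. With calls this frequent in the whole table, these counts are no result about the members. Tested for changes above 2-fold with glmTreat, VIM, NES and INA were called lower at day 5 against day 0, among 10.3% of all tested genes. NES alone of the 6 was called lower in that way at day 2 against day 0, among 5.54%, and none of the 6 higher, where 6.99% of all genes were; at day 5 against day 0 none of the 6 was called higher, where 9.73% were. At day 5 against day 2, VIM was called lower, among 7.95%, and SYNM higher, among 6.41%. By the libraries alone, 2 of the 6 tested members lay wholly higher and 4 wholly lower at day 2 against day 0, where 41.3% and 41.4% of all genes did. At day 5 against day 0, 2 of the 6 (SYNM and NEFH) lay wholly higher and 3 wholly lower, where 43.8% and 40.7% did, and at day 5 against day 2 the counts among the 6 were again 2 and 3, where 41.0% and 41.4% did.

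**Figure D3:**
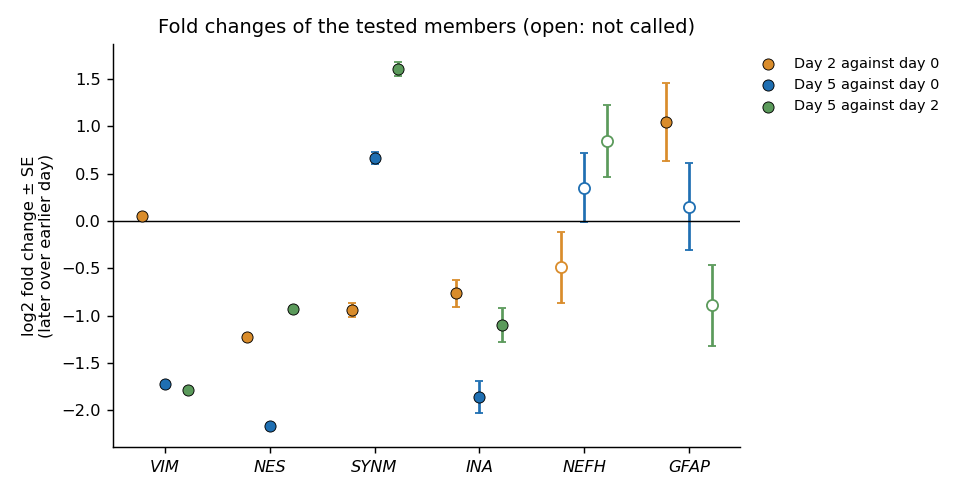
The log2 fold change (y axis, later over earlier day, with its SE) of each tested member (x axis) in the 3 comparisons, from the edgeR fit; filled points were called at an adjusted p under 0.05. VIM lies near 0 at day 2 against day 0 and at -1.73 at day 5 against day 0, and SYNM alone is above 0 at day 5 against day 0 among the called members.

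Ratios of counts within a library do not depend on how libraries are scaled, and they show that VIM, NES and SYNM did not change in step. Per NES count, VIM had 9.01 and 8.71 counts in the day 0 libraries, 21.8 and 21.4 in those of day 2, and 11.8 and 12.2 in those of day 5. NES was thus lowest relative to VIM at day 2. Per SYNM count, it had 132 and 127 counts in the day 0 libraries, 271 and 248 in those of day 2, and 25.4 and 24.0 in those of day 5. Per INA count, it had 460.0 and 471 counts in the day 0 libraries, 753 and 903 in those of day 2, and 496 and 529 in those of day 5, so the ratio of INA to VIM at day 5 was close to that at day 0. The libraries of different days did not overlap in any of these ratios. With 2 libraries a day an exact permutation test cannot go below a two-sided 0.333, so no p is given.

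**Figure D4:**
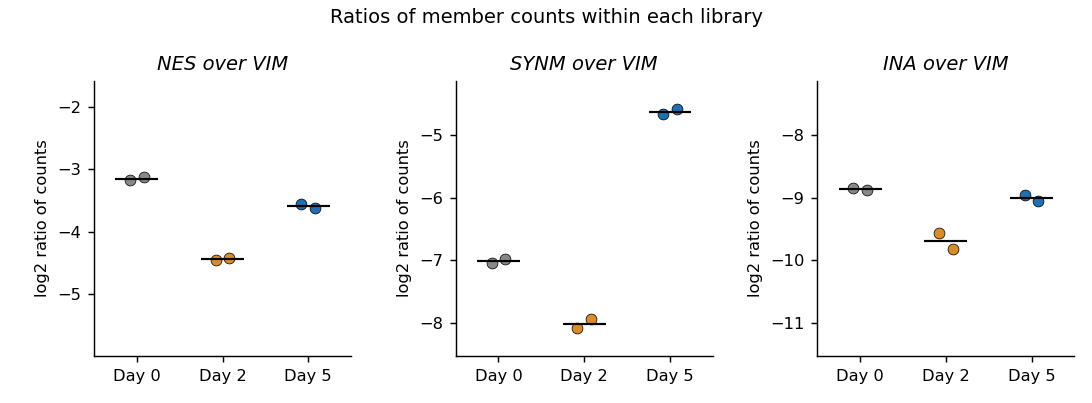
The log2 ratio of NES, SYNM and INA counts to VIM counts (y axis, each panel spanning the same range) within each library of day 0, day 2 and day 5 (x axis); bars are means of 2. All 3 ratios are lowest at day 2, and SYNM over VIM is highest at day 5, at -4.63 against -7.02 at day 0.

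Compared per length, VIM transcripts outnumbered those of all other members on every day. In TPM, for which counts are divided by the deposited gene length before scaling, VIM averaged 5124 ± 5.33 at day 0, 4603 ± 2.81 at day 2 and 1494 ± 17.2 at day 5. NES averaged 224 ± 5.06, 82.4 ± 0.991 and 48.3 ± 0.731 TPM on these days, SYNM 11.6 ± 0.273, 5.21 ± 0.336 and 17.7 ± 0.916 TPM, and INA 7.30 ± 0.136, 3.71 ± 0.473 and 1.93 ± 0.0776 TPM. SYNM was above INA on all 3 days. VIM made up 95.4% of the summed TPM of the 10 members at day 0, 97.995% at day 2 and 95.5% at day 5. The 5 neuronal members together made up 0.152 ± 0.00116% at day 0, 0.0905 ± 0.00993% at day 2 and 0.186 ± 0.00972% at day 5. Beside the higher share at day 5 than at day 0, VIM and INA fell and NEFH, at 0.942 ± 0.0111 TPM at day 5 and 0.760 ± 0.204 TPM at day 0, was not called.

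The day 2 and day 5 samples are labelled as induced neurons, and the cell type markers were read beside the filaments. Of 12 neuron markers, 6 passed the count filter, and STMN2 and ELAVL4 had 0 counts in all libraries. The sum, mostly TUBB3, was 107 and 112 CPM at day 5, against 244 and 253 CPM at day 0. Among the 6 tested markers only SNAP25, a synaptic vesicle fusion protein, had a higher mean at day 5 (18.3 CPM) than at day 0 (5.89 CPM). Means of TUBB3, MAP2, SYN1, SYP and MAPT were lower, with MAP2 at 0.835 CPM at day 5 and 13.0 CPM at day 0. All 9 fibroblast markers were tested. Their sum was 27781 and 28182 CPM in the day 5 libraries and 10929.7 and 11159 CPM in those of day 2, against 13853 and 14189 CPM in those of day 0, but the list was split. Mean levels of COL1A2, COL3A1, PDGFRA and PDGFRB were higher at day 5 than at day 0, with COL1A2 at 14326 CPM against 5053 CPM. Those of COL1A1, THY1, DCN, LUM and FAP were lower, with DCN, a matrix proteoglycan, at 202 CPM at day 5 and 1044 CPM at day 0. The keratinocyte markers KRT5, KRT14, KRT1 and TP63 were at 0 in all libraries. In these bulk libraries, fewer cells of a type and less RNA per cell cannot be told apart.

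Most tested genes in the list of other cytoplasmic filaments were lower at day 5 than at day 0, as VIM and NES were. The list also held KRTAP1-5, whose product is not itself a filament protein, and its counts and medians include that gene. Of 15 listed, 8 were tested, and at day 5 against day 0 7 fell, 0 rose and 1 was not called by edgeR. The median log2 fold change was -3.16, against 0.04 for all tested genes, of which 34.1% were called lower and 35.8% higher. KRT34 and KRT80 passed the count filter only through day 0, where they were high, so their fall was built into the selection. The list was also chosen with earlier results known, so its count and median are no test of filament genes. At day 2 against day 0, 6 fell and 1 rose (median -1.61, against 0.00), where 33.4% of all tested genes were called in each direction. SYNC, which encodes syncoilin, a filament protein of muscle that binds desmin, averaged 5.93 ± 1.18 CPM at day 5 and 43.7 ± 3.20 CPM at day 0 (log2 fold change -2.87 ± 0.12, adjusted p = 4.2e-13 in edgeR). KRT18, a keratin of simple epithelia also found in cultured mesenchymal cells, was 3.51-fold lower at day 5 than at day 0, while its partner KRT8 averaged 31.5 ± 0.497 CPM at day 2 and 19.2 ± 0.541 CPM at day 0 and was the gene that rose (log2 fold change 0.71 ± 0.08, adjusted p = 5.5e-07 in edgeR). The keratin KRT80 had 0 counts over both day 5 libraries and 255 over both day 0 libraries, at least 54.6-fold lower. KRTAP1-5, a hair keratin-associated protein, had 0 counts at day 5 and 563 at day 0, at least 121-fold lower. KRT34, a hair keratin named after its values were seen, had 0 counts at day 5 and 52 at day 0, at least 11.1-fold lower. KRT7, another simple-epithelial keratin, averaged 0.142 CPM at day 5 and 0.594 CPM at day 2. It had 2 and 3 counts in the day 5 libraries, at or under the floor of 3, and 16 and 14 in those of day 2. No exact fold is given for it.

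The nuclear lamins, the filaments under the nuclear envelope, were split. Of 8 lamin and partner genes, 4 rose and 3 fell at day 5 against day 0, where 35.8% of all tested genes were called higher and 34.1% lower. The median was 0.32, against 0.04 for all tested genes. At day 2 against day 0, 2 rose and 4 fell (median -0.24), where 33.4% of all tested genes were called in each direction. With 8 genes and calls this frequent, these counts are not read as a result about the lamins. With library totals 4 rose and 4 fell at day 5. LMNA, the lamin of differentiated and stiff tissues, fell as VIM did, to 321 ± 0.470 CPM at day 5 against 1004 ± 28.5 CPM at day 0 (log2 fold change -1.65 ± 0.03, adjusted p = 1.7e-18 in edgeR), but most of its fall was present by day 2 (435 CPM). LMNB1, a lamin that falls in senescent cells, averaged 8.58 ± 0.0845 CPM at day 5 and 1.97 ± 0.0454 CPM at day 2, against 5.62 ± 0.310 CPM at day 0. It was 2.86-fold lower at day 2 than at day 0 and 4.35-fold higher at day 5 than at day 2, which left it 1.52-fold above day 0. LBR, the lamin B receptor of the inner nuclear membrane, was 3.45-fold higher at day 5 than at day 0, at 40.2 ± 2.10 CPM against 11.7 ± 0.191 CPM. LMNB2 and ZMPSTE24, the protease that matures lamin A, both fell at day 5 against day 0, by 0.61 and 0.59 on the log2 scale. TMPO, which encodes nuclear proteins that bind lamins, was 1.42-fold higher at day 5 than at day 2, at 28.1 ± 0.251 CPM against 19.9 ± 1.78 CPM.

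Transcripts of proteins that link filaments to each other and to the rest of the cytoskeleton were mostly lower at day 5. Of 16 tested cytolinkers and binding partners, 13 fell and 2 rose at day 5 against day 0. The median was -0.996, against 0.04 for all tested genes, of which 34.1% were called lower and 35.8% higher. At day 2 against day 0, 9 fell and 6 rose (median -0.63), where 33.4% of all tested genes were called in each direction. This list was chosen with earlier results known, so its counts and medians are no test of cytolinker genes. EPPK1, 1 of the 2 that rose at day 5, passed the count filter only through day 5. With library totals 15 fell and 1 rose at day 5, DST among those that fell (-0.12 on the log2 scale, against 0.09 with TMM scaling), and 9 fell and 4 rose at day 2, where MACF1 and DNAJB6 lost their calls. PLEC, the plectin that ties vimentin to actin and adhesions, averaged 550 ± 5.06 CPM at day 5 and 547 ± 21.1 CPM at day 2, against 1084 ± 26.2 CPM at day 0 (log2 fold change at day 5 against day 0 -0.98 ± 0.03). HSPB1, a small heat shock protein that chaperones filaments, was 11.2-fold lower at day 5 than at day 0 (log2 fold change -3.49 ± 0.04, adjusted p = 2.5e-20 in edgeR). S100A6, a calcium-binding protein, was at 158 ± 3.86 CPM at day 5 and 1085 ± 5.02 CPM at day 2, a log2 fold change of -2.78 ± 0.02. FLNA, the actin crosslinker filamin A, fell to 1091 ± 38.3 CPM at day 5, against 3000.1 ± 78.5 CPM at day 0. DST, a spectraplakin that binds filaments and microtubules, averaged 328 ± 5.44 CPM at day 2 and 176 ± 2.06 CPM at day 0. Its relative MACF1 was 2.17-fold lower at day 5 than at day 2.

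Of 20 tested genes for enzymes that modify or cut filaments, 15 fell and 4 rose at day 5 against day 0. The median was -0.50, against 0.04 for all tested genes, of which 34.1% were called lower and 35.8% higher. At day 2 against day 0, 13 fell and 6 rose. That median was -0.45, against 0.00 for all tested genes, of which 33.4% were called in each direction. Since the list was chosen with earlier results known, these counts and medians are no test of such enzyme genes. CAPN2, a calpain that cleaves vimentin and neurofilaments, averaged 213 ± 5.23 CPM at day 5, 422 ± 6.86 CPM at day 2 and 934 ± 17.3 CPM at day 0 (log2 fold change at day 5 against day 0 -2.13 ± 0.03, adjusted p = 2.3e-20 in edgeR). CAPN1 was 2.22-fold lower at day 5 than at day 0. ROCK1, a kinase that phosphorylates vimentin, was 3.44-fold higher at day 2 than at day 0, at 114 ± 5.61 CPM against 33.2 ± 2.46 CPM, and 2.18-fold lower at day 5 than at day 2. PPP1CB, a catalytic subunit of a serine/threonine phosphatase that acts on myosin, was 1.82-fold higher at day 2 than at day 0, at 107 ± 0.347 CPM against 58.8 ± 2.13 CPM. ROCK2 was 2.99-fold lower at day 5 than at day 2. TRIM2, a ubiquitin ligase that binds the light neurofilament protein in mouse, rose 3.07-fold at day 5 against day 0, to 44.2 ± 1.44 CPM.

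Of 7 motor and transport genes, all tested, 3 fell and 0 rose at day 5 against day 0 (median -0.19, against 0.04 for all tested genes), and 3 fell and 2 rose at day 2 against day 0 (median 0.02, against 0.00). With 34.1% of all tested genes called lower at day 5 and 33.4% at day 2, 3 of 7 lower is near the background. With library totals the day 2 median was -0.17, with 4 lower and 2 higher, and 5 were lower at day 5. DCTN1, a subunit of the dynactin complex, averaged 254 ± 1.75 CPM at day 5 and 600 ± 3.07 CPM at day 0 (log2 fold change -1.24 ± 0.02), the dynein heavy chain DYNC1H1 734 ± 8.79 CPM at day 5 and 1055 ± 5.43 CPM at day 0, and the kinesin light chain KLC1 77.6 ± 2.85 CPM at day 5 and 155 ± 3.48 CPM at day 0. KIF5B, the kinesin that carries vimentin, was 2.27-fold higher at day 2 than at day 0 and 2.26-fold lower at day 5 than at day 2. KIF5C, its neuronal relative, averaged 0.256 ± 0.0234 CPM at day 5 and 1.78 ± 0.669 CPM at day 2, against 0.239 ± 0.00277 CPM at day 0. KIF5C had 6 and 7 counts in the day 0 libraries, 54 and 35 in those of day 2, and 4 and 5 in those of day 5. It was 7.27-fold higher at day 2 than at day 0 and 6.76-fold lower at day 5 than at day 2. There was no call between day 5 and day 0 (log2 fold change 0.10 ± 0.70). Since it passed the count filter only through day 2, where it was high, its tests give no support for this peak. It is 1 of the 2 transport genes counted as risen at day 2. KIF1B, a kinesin of organelle transport, was at 73.45 ± 1.04 CPM at day 5 and 70.1 ± 1.63 CPM at day 0 (log2 fold change 0.07 ± 0.05) and was not called.

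Transcription factors known to act on filament genes in other tissues moved in both directions. Of 15 listed, 12 were tested, with 7 higher and 4 lower at day 5 against day 0 (median 0.79, against 0.04 for all tested genes, of which 35.8% were called higher and 34.1% lower). At day 2 against day 0, 9 were higher and 3 lower. The median was 0.55, against 0.00 for all tested genes, of which 33.4% were called in each direction. Since this list too was chosen with earlier results known, its counts and medians are no test of such factors. The neural factors SOX2, POU3F2 and PAX6 were not among those tested: POU3F2 had 0 counts, and SOX2 and PAX6 had at most 3 in a library. FOSL1, an AP-1 subunit, averaged 7.37 ± 0.238 CPM at day 5 and 81.1 ± 4.45 CPM at day 0, a log2 fold change of -3.46 ± 0.08 (adjusted p = 2.9e-16 in edgeR). ZEB1, a factor of the mesenchymal state, was at 44.5 ± 3.63 CPM at day 5 and 250.1 ± 4.43 CPM at day 2, against 97.6 ± 0.295 CPM at day 0. Its level thus peaked at day 2. TWIST1, another mesenchymal factor, was 2.71-fold higher at day 5 than at day 2, SNAI2 2.04-fold higher at day 5 than at day 0, and ZEB2 1.58-fold higher at day 5 than at day 2. SOX4 was 4.30-fold higher at day 5 than at day 0.

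**Figure D5:**
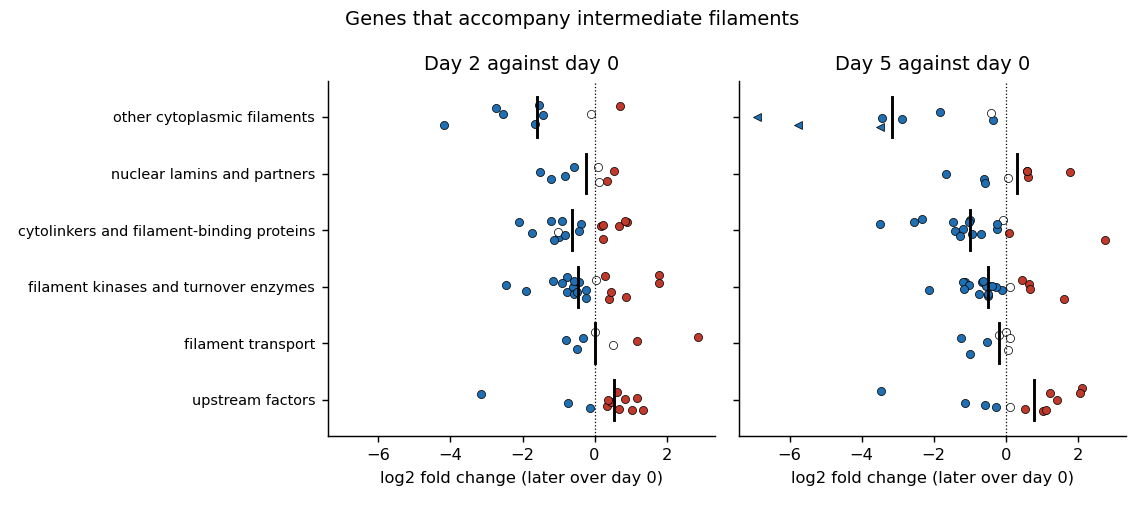
The log2 fold change (x axis, later day over day 0) of the tested genes of each list (rows); blue and red points were called lower and higher, open points were not called, triangles are bounds for genes with 0 counts at day 5, and black bars are medians. The list of other cytoplasmic filaments, which includes the keratin-associated gene KRTAP1-5, has medians of -1.61 at day 2 and -3.16 at day 5.

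The genes whose course over the 6 libraries was nearest to that of a member were found by the root mean square difference of centred log2 CPM among 10649 genes whose mean level reached 5 CPM. Nearest to VIM were MYL12A, a myosin regulatory light chain (difference 0.029 log2), TMTC1 (0.044) and MYO10, an unconventional myosin (0.044). MYL12A averaged 442 CPM at day 0, 474 CPM at day 2 and 135 CPM at day 5. Nearest to NES were PLIN3, a lipid droplet protein (0.028), the calpain CAPN2 (0.036) and UBE2L6, an interferon-induced ubiquitin-conjugating enzyme (0.047). Nearest to SYNM were PATZ1 (0.052), the aminotransferase GOT1 (0.066) and MTG1 (0.070), all lowest at day 2. Nearest to INA were the peroxiredoxin PRDX6 (0.064), the mitotic kinase AURKA (0.072) and AP1S1 (0.080).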

How the data were processed

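RNA was sequenced from 6 libraries. The deposited table is a count matrix, per the file headers, and its values, 87.2% of them whole, were taken as unscaled expected counts deposited by the authors; the submitters' processing notes name GRCh38 as build. Which aligner, counter, annotation and strand setting were used is not given in the sources used here. Gene length in bases is the authors' deposited column. Library totals ran from 17605858 to 27953926, so low levels were least certain at day 5, whose libraries were the shallowest. The 172 rows without a name, with 0.0356 to 0.0475% of counts, were left out.

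Counts were rounded and fitted for all 6 libraries by day in edgeR 4.0.16 under R 4.3.3, using TMM factors, filterByExpr (minimum count 10, total 15) and the quasi-likelihood test. This left 16328 genes, over which p-values (two-sided) were adjusted by Benjamini-Hochberg, with calls at 0.05. The SE is the log2 fold change over the square root of F. CPM used totals over the named rows. TPM used unrounded counts. For symbols on more than 1 row, the row of highest mean count was used. Alternatives were RLE factors, library totals, DESeq2 1.42.0, limma-voom (limma 3.58.1), no count filter, a stricter one (at least 4 libraries with at least 1 CPM), a fit of just the compared days, a block on the replicate number, glmTreat at 2-fold, and the omission of each library in turn. The fit was tested on simulated data.

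Genes named by rule were the 10 members, up to 4 tested genes of lowest adjusted p per list and comparison, and the 3 genes nearest to each member of at least 5 CPM. Not every gene so chosen is reported here. Outside this rule, cell type markers, untested list genes, genes whose calls changed with scaling and genes whose exons overlap a member were also named. KRT34 and EPPK1 were named after their values were seen. The members and lists were chosen with earlier results of these data known. Coordinates come from GENCODE release 29, matched by identifier for 10 of 10 members.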

Additional observations from a re-analysis of the deposited data

How the results depend on the processing

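The day 5 falls of VIM, NES and INA, and the SYNM rise at day 5, kept their direction and their call under the 14 alternatives to the edgeR test of any change. Asked for changes above 2-fold, glmTreat, which calls fewer by construction, called 2045 genes (1141 higher, 904 lower) and 1 member for day 2 over day 0, 3276 genes (1589 higher, 1687 lower) for day 5 over day 0, and 2344 genes (1046 higher, 1298 lower) and 2 members for day 5 over day 2. VIM at day 2 against day 0 reversed to -0.13 with library totals, which also took the day 2 calls of MACF1, DNAJB6, TRIM2 and SOX11. GFAP at day 5 against day 0, never called, reversed to -0.053 with library totals and ran from -0.69 to 0.65 when 1 library was left out. Without 1 library, genes called ran from 9726 to 11119, 10303 to 11492 and 9715 to 10688 in the comparisons of day 2 with day 0, day 5 with day 0 and day 5 with day 2. Taken per length, the log2 ratio of neuronal to mesenchymal members was -9.36, -10.11 and -9.07 at days 0, 2 and 5, against -8.84, -9.53 and -8.51 in counts, since lengths differ between the classes. Same-numbered libraries did not deviate together (correlation 0.00278 for day 2 and day 0, -0.00202 for day 5 and day 0, -0.00557 for day 5 and day 2), so the numbers were not taken as pairs; with the replicate block 10900, 11352 and 10723 genes were called, against 10914, 11406 and 10745 without it, and no member changed its call. Depth limits NEFL, NEFM, PRPH and DES, which stay near 3 counts per library.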

Other observations

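EPPK1, which encodes the cytolinker epiplakin and was chosen after its values were seen, averaged 1.39 ± 0.577 CPM at day 5 and 0.202 ± 0.00635 CPM at day 0. It had 5 and 6 counts in the day 0 libraries, 2 and 3 in those of day 2, and 30 and 18 in those of day 5. Its log2 fold change at day 5 against day 0 was 2.74 ± 0.61. It passed the count filter only through day 5, where it was high, so its test gives no support for a rise. VIM-AS1, a gene on the strand opposite to VIM whose exons overlap it, had 21.5 and 17.3 counts in the day 0 libraries, 6.03 and 19.9 in those of day 2, and 18.9 and 10.0 in those of day 5, against 24303 or more counts of VIM in every library.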
